A study of Mus musculus with 30 samples.

Results

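The genes described here are 10 chemokines: Ccl2, Ccl3, Ccl4, Ccl5, Ccl6, Ccl9, Cxcl1, Cxcl2, Cxcl10 and Cxcl16. They were found on the arrays by gene name, and every probe bearing 1 of these names was taken, whatever its signal. This gave 10 of 22220 named genes and 11 of 55681 probes, because Cxcl10 had 2, and all 11 were well above background on at least 3 arrays. They are therefore among the 35905 probes that entered the tests.

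Chemokines are small secreted proteins that draw leukocytes towards their source by binding receptors on the cell surface. Blood monocytes and neutrophils both answer to them and make several of them, many under control of the transcription factor NF-kB. The CC members act mainly on monocytes and lymphocytes, whereas Cxcl1 and Cxcl2 act on neutrophils through the receptor Cxcr2.

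Female C57BL/6 mice aged 6 weeks were injected in the tail vein with oleic acid (OA), which damages lung capillaries once it circulates, or with physiological serum. OA was dosed at 1.2 µl/g, and both injections had a volume of 200 µl. The mice were bled 1, 1.5, 3, 4, 18 or 24 h later, and RNA of their peripheral blood mononuclear cells (PBMC), the lymphocyte and monocyte fraction of a Ficoll gradient, was hybridised to 1-colour Agilent arrays. The OA groups held 3, 3, 3, 2, 3 and 3 arrays and the serum groups 3, 3, 2, 1, 2 and 2 arrays in that order of times, 30 in all. All mice were anaesthetised with xylazine and ketamine, the serum mice included, and the groups hold no untreated mice. Levels are log2 values relative to the 75th percentile of each array, so levels of different probes are not set against each other. Differences are OA minus serum on that log2 scale, given with the standard error (SE) of the limma fit, and adjusted p is the Benjamini-Hochberg value over all probes tested.

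The arrays were not alike in quality. The 75th percentile of signal ran from 40.2 to 152, and the share of probes well above background from 34.6% to 64.8%. Precision is limited by how few arrays each group has. The lowest median correlations with the other arrays were those of OA 4 h replicate 2 (0.835), serum 24 h replicate 1 (0.797) and serum 1.5 h replicate 3 (0.885), against at least 0.922 for the rest. They also had the highest signal from probes for long intergenic RNA (−2.07, −1.87 and −3.06 in that order, against at most −3.18 for the rest). This signal is in log2 relative to the array's median over probes detected throughout. That median, relative to the percentile, was itself lowest on these arrays (0.99, 1.05 and 1.49). Monocyte and lymphocyte markers were measured throughout, but so were those of neutrophils and platelets, which the gradient should deplete. In such mixed blood samples, fewer cells of a type and less RNA per cell cannot be told apart.

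The probes lie in 2 gene clusters and 2 single places of the mm9 genome, per the array files. Those for Ccl5, Ccl9, Ccl6, Ccl3 and Ccl4 fall within 139 kb of chromosome 11, between 83339296 and 83478111, and the Ccl2 and Cxcl16 probes lie elsewhere on that chromosome, from 81850650 and from 70267780. On chromosome 5 the Cxcl1 and Cxcl2 probes begin 12.7 kb apart, at 91321845 and 91334534. The 2 Cxcl10 probes begin 835 bases apart on the minus strand of chromosome 5, at 92775781 and 92776616. The one at the lower coordinate was designed on the RefSeq transcript of the gene and the other on a cDNA clone, so they are called the Cxcl10 RefSeq probe and the Cxcl10 cDNA probe. The first 30 of the 60 bases of 3 probes are shown, 5′ to 3′, because the results turn on a probe repeated over the array (Ccl2) and on a gene with probes that disagree (Cxcl10).
Ccl2: tgtaggagtgaccagtgtgacagtgaacta
Cxcl10 RefSeq probe: gctttgcattgtatatggaagaacttgtgt
Cxcl10 cDNA probe: ttcctagtgtctagaagtggagcagttatt

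RefSeq promoter sequences (GRCm38.p6) were at hand for 6 of the 10 genes: Ccl3, Ccl6, Ccl9, Cxcl1, Cxcl2 and Cxcl10. In the 250 bases before the gene start, the NF-kB motif, GGG and TTCC with any 3 bases between them, was searched on both strands. It stood in 4 of these 6 promoters, namely those of Cxcl1, Cxcl2, Cxcl10 and Ccl9, and in 4.65% of all 32851 promoter windows of that length. An interferon response motif, TTTC and again TTTC with any 2 bases between them, on either strand, stood in that of Cxcl10 alone of the 6 and in 2.98% of all windows. The AP-1 motif, TGA and TCA with any 1 base between them, was also searched. It stood in 2 of the 6, those of Cxcl10 and Ccl9, and in 6.75% of all windows. The stretches before the starts of the 3 CXC genes are printed with the NF-kB and interferon response motifs in capitals and AP-1 matches left in lower case. In Cxcl1 and Cxcl2 a match on each strand overlaps by all but 1 base, and together they form 1 run of capitals. A match is a description of letters, not of binding.
Cxcl1, chr5:90891095-90891244, plus strand: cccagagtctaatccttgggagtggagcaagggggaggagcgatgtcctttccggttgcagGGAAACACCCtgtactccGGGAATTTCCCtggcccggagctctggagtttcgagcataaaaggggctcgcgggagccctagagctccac
Cxcl2, chr5:90903749-90903898, plus strand: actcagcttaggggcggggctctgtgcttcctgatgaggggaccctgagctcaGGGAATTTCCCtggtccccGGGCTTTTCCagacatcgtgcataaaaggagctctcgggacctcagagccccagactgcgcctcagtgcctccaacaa
Cxcl10, chr5:92348890-92349139, minus strand: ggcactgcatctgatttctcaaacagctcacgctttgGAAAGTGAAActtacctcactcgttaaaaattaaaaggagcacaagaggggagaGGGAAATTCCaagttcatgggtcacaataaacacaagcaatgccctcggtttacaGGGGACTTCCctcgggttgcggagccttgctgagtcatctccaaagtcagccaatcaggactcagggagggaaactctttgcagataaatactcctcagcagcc

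**Figure D1:**
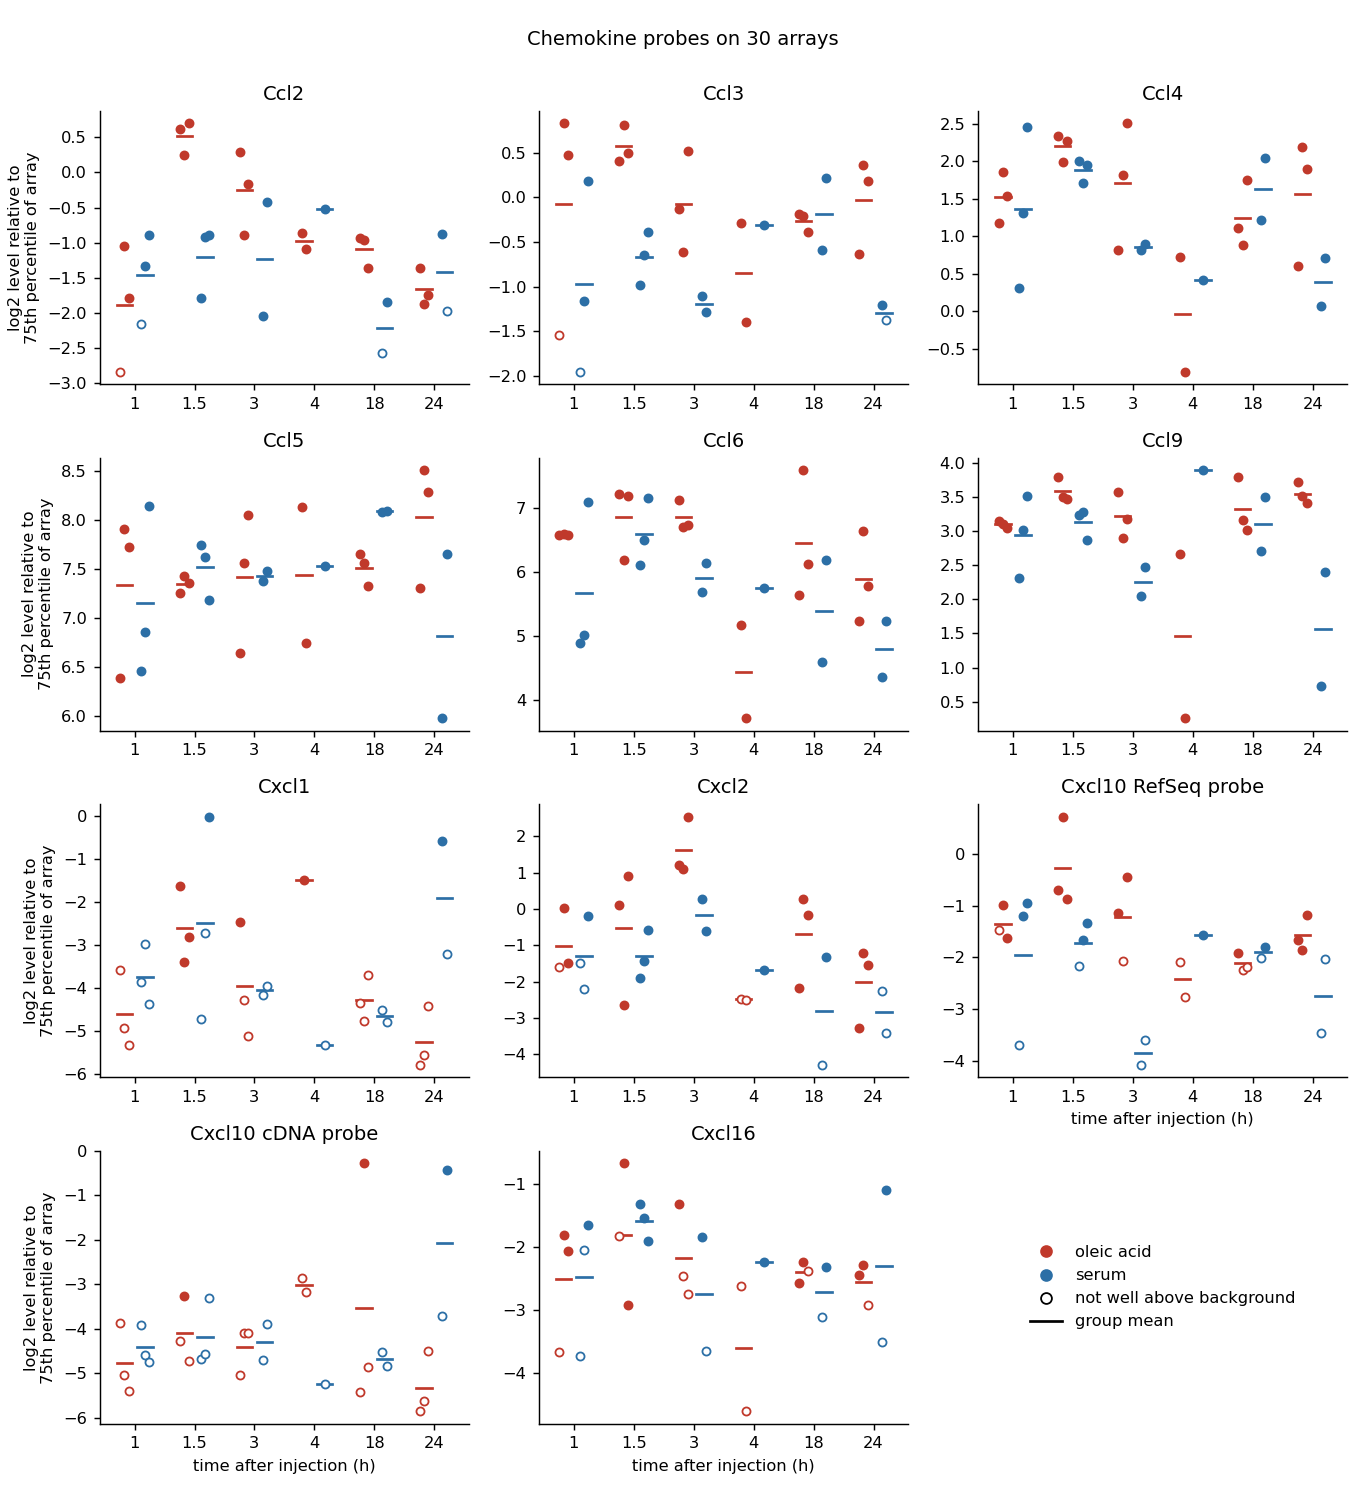
Level of each chemokine probe (vertical axes, log2 relative to the 75th percentile of the array) at each time after injection (horizontal axes, h), with 1 point per array, OA left of serum, open points where the probe was not well above background and a bar at the group mean. The 3 OA points of Ccl2 at 1.5 h lie above all 3 serum points, and those of Ccl9 at 24 h lie above both serum points.

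Ccl2, the ligand of Ccr2 that draws monocytes out of marrow and blood, stood highest 1.5 h after OA. Its levels then were 0.62, 0.26 and 0.70 in OA mice, against −1.79, −0.92 and −0.89 in serum mice. The groups did not overlap. The difference of 1.72 (SE 0.48, n = 3 and 3) had an unadjusted p of 0.0016, but it did not pass over all probes (limma, adjusted p = 0.494). At 3 h Ccl2 stood at 0.30, −0.89 and −0.17 in OA mice and at −2.05 and −0.42 in serum mice, and 1 of the serum values lay within the OA range. At 18 h it stood at −0.93, −0.96 and −1.37 in OA mice and at −2.58 and −1.85 in serum mice, again apart, with a difference of 1.13 (SE 0.54, limma, adjusted p = 1.00). On the serum array at −2.58, Ccl2 was not well above background. At 1, 4 and 24 h the differences were −0.43 (SE 0.48), −0.45 (SE 0.72) and −0.24 (SE 0.54).

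The OA groups alone differed over the 6 times for Ccl2 with an unadjusted p of 0.00047 (limma F test, adjusted p = 0.0900). For the serum groups the unadjusted p was 0.293. These 2 tests rest on 17 and 13 arrays and do not compare the treatments. The direct test, whether the OA effect differed between times, had an unadjusted p of 0.0254 for Ccl2 (limma F test, adjusted p = 0.258). Of the 10 members 7 had an unadjusted p under 0.05 over the OA times (18% of all probes) and 2 over the serum times (13.2%), and none passed the adjusted threshold (0.198% and 0.0585% of all probes did). OA means were −1.89, 0.52, −0.25, −0.98, −1.09 and −1.66 over the times in order. The 1.5 h and 3 h groups were at the top of that order, and a single OA array at 3 h lay within the range of those at 1.5 h.

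The array carries the Ccl2 probe on 10 spots, which gives a measure of technical error that no other member has. Within an array the SD over these spots was 0.186 at the median and 0.720 at most. Between arrays of a group the SD of the array means was 0.518 at the median. At 1.5 h the lowest spot on any OA array was at −0.03 and the highest spot on any serum array at −0.52, so even single spots of the 2 groups did not overlap. The spread between arrays was thus larger than that between spots. On the 2 slides that held arrays of both groups at 1.5 h the differences were 1.17 and 1.59. At other times the difference within a shared slide was −1.31 at 1 h and −0.46 at 3 h, both on slide 1. It was −0.56 at 4 h on slide 3 and 0.89 at 18 h on slide 2. The sign at 3 h was thus opposite to that of the fit.

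**Figure D2:**
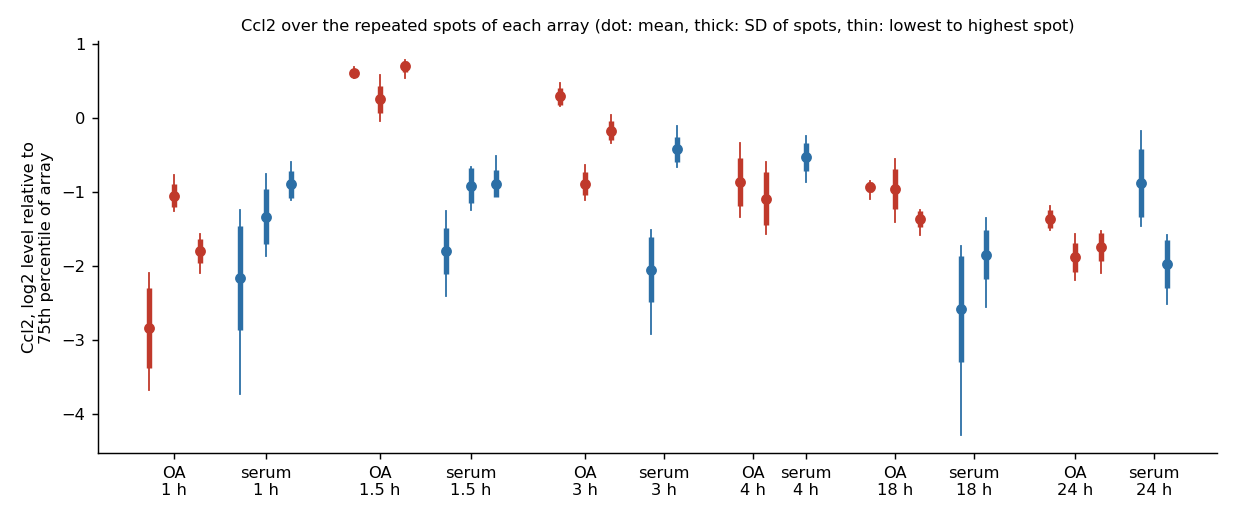
Ccl2 level (vertical axis, log2 relative to the 75th percentile) over its repeated spots on each of the 30 arrays, grouped by time with OA left of serum. Points are array means, thick bars the SD over spots and thin lines the lowest to highest spot; at 1.5 h the spots of the OA arrays lie above those of the serum arrays.

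At 1 h, 7 of the 10 chemokines had a difference above 0, with a median of 0.18 against −0.13 over all probes. None had an unadjusted p under 0.05 (5.59% of all probes did), and in none were the groups apart (12.6%). Single arrays turned that count: without serum 1 h replicate 1, 3 of 10 were above 0 (median −0.23), and without OA 1 h replicate 2, 5 of 10 (median −0.05). At 1.5 h, 3 of the 10 chemokines had an unadjusted p under 0.05 (9.61% of all probes did), and all 3 were higher after OA. Besides Ccl2 these were Ccl3 and Cxcl10. None passed the adjusted threshold, and neither did any other probe on the array (0%). Groups of 4 members did not overlap, all with OA higher, where 15.4% of all probes did so.

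Ccl3, a ligand of Ccr1 made by activated monocytes, stood at 0.40, 0.81 and 0.50 in OA mice at 1.5 h and at −0.98, −0.65 and −0.38 in serum mice. These ranges were apart, and the difference was 1.24 (SE 0.53, limma, adjusted p = 0.497). At 3 h its OA values of −0.13, −0.61 and 0.52 again lay above the serum values of −1.11 and −1.28. That difference was 1.12 (SE 0.60, limma, adjusted p = 0.676). At 24 h Ccl3 had −0.63, 0.36 and 0.18 in OA mice and −1.21 and −1.38 in serum mice, once more without overlap, with a difference of 1.27 (SE 0.60, limma, adjusted p = 0.105). At 1, 4 and 18 h the groups overlapped. Over the mean of the 6 times Ccl3 differed by 0.65 (SE 0.25), with an unadjusted p of 0.0165 (limma, adjusted p = 0.329).

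Cxcl10, the interferon-induced ligand of Cxcr3 on T and natural killer cells, was higher in OA mice than in serum mice on its RefSeq probe at 1.5 h and 3 h. The Cxcl10 RefSeq probe read −0.70, 0.72 and −0.87 in OA mice at 1.5 h and −2.16, −1.67 and −1.34 in serum mice, a difference of 1.44 (SE 0.58, limma, adjusted p = 0.494). At 3 h it read −1.14, −2.08 and −0.44 in OA mice and −4.08 and −3.61 in serum mice. All OA values lay above all serum values at both times. The fitted difference at 3 h was 2.62 (SE 0.65), with an unadjusted p of 0.00053 (limma, adjusted p = 0.617). No serum array was well above background at 3 h. With each serum array at its lowest well-above-background signal, the OA mean was 1.87-fold higher. That is not a strict bound, because only 2 of the OA mice were well above background. Over the 6 times the Cxcl10 RefSeq probe differed by 0.79 (SE 0.27), with the lowest unadjusted p of the members for that mean (0.0082, limma, adjusted p = 0.316), but the mean takes in fitted values of groups not well above background.

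The Cxcl10 cDNA probe did not follow. It was well above background on 3 of 30 arrays, against 17 for the Cxcl10 RefSeq probe. These 3 were replicate 2 of the OA mice at 1.5 h (−3.27), replicate 2 of the OA mice at 18 h (−0.28) and replicate 2 of the serum mice at 24 h (−0.43). Its difference was 0.10 (SE 0.93) at 1.5 h, where the RefSeq probe had 1.44. At 3 h no array of either group was well above background on it. Over the 30 arrays the 2 probes of the gene had a Pearson correlation of −0.12, given as a description. Statements on Cxcl10 below rest on the Cxcl10 RefSeq probe unless the other is named.

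At 3 h, 9 of the 10 members had a difference above 0 with a median of 0.95, where all probes had a median of 0.09. Of the members, 5 had OA values all above the serum values, against 15.6% of all probes, and 1 had an unadjusted p under 0.05, against 7.53% of all probes. None passed the adjusted threshold (0% of all probes did, limma). The 5 were Ccl3, Ccl6, Ccl9, Cxcl2 and Cxcl10. Cxcl2, a ligand of Cxcr2 that draws neutrophils, read 1.21, 1.09 and 2.54 in OA mice and 0.26 and −0.61 in serum mice. Its difference was 1.79 (SE 0.99, limma, adjusted p = 0.685), and the 3 OA values at 3 h were its highest of all 30 arrays.

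**Figure D3:**
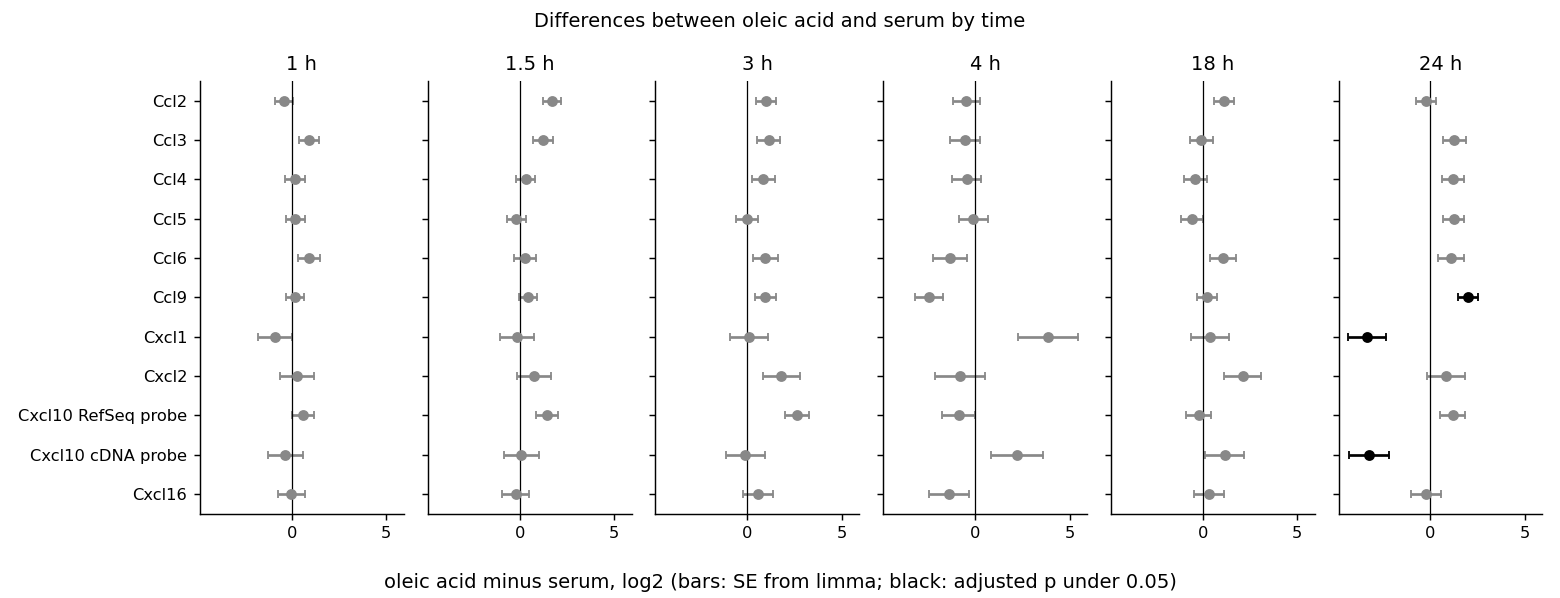
OA minus serum (horizontal axes, log2, 1 panel per time) for each chemokine probe, with bars for limma's SE and black points where the adjusted p was under 0.05. Black points occur at 24 h only, for Ccl9 above 0 and for Cxcl1 and the Cxcl10 cDNA probe below 0.

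Levels of cell markers at these early times are given beside these values, and their part in them was not tested. At 1.5 h all 11 platelet markers were above 0, each with an unadjusted p under 0.05 (9.61% of all probes) but none past the adjusted threshold. Their mean level was 5.43 to 7.18 in OA mice against 3.54 to 4.92 in serum mice. Monocyte markers at that time averaged 3.17 to 3.44 in OA mice and 2.81 to 3.18 in serum mice. B cell markers had 9 of 9 above 0 at 1.5 h (median 0.66) and erythroid markers 8 of 8 below 0 (median −1.08). Of the neutrophil markers 10 of 12 were below 0 at 1.5 h (median −0.38). Intergenic RNA signal then averaged −4.21 in OA mice and −3.50 in serum mice, and Ccl3 had a Pearson r of −0.68 with it over the 30 arrays. At 3 h the monocyte markers averaged 2.96 to 3.62 in OA mice and 2.27 to 2.32 in serum mice, with 12 of 12 markers above 0. None was past the adjusted threshold, and 5 had an unadjusted p under 0.05 (7.53% of all probes). All 11 platelet markers were above 0 at 3 h as well, 3 of them with an unadjusted p under 0.05, and 10 of 12 neutrophil markers were (median 0.45). Of the lung and endothelial list, 3 of 9 genes had no usable probe. The other 6 averaged −2.52 to −1.97 in OA mice and −1.83 to −1.16 in serum mice at 1.5 h.

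At 4 h a single serum array stands against 2 OA arrays, and 71.6% of all probes did not overlap there. Of the members 9 were below 0 and 1 was above, with a median of −0.67. Without OA 4 h replicate 2, 4 were above 0 (median −0.36). Scaled to probes detected throughout, 5 were (median −0.10), and so were 5 with the intergenic signal as a covariate (median 0.04). Groups were apart with OA lower in 6 of them (37.9% of all probes) and with OA higher in 1 (33.7%), and 2 had an unadjusted p under 0.05 (10.8%). Ccl9, a mouse ligand of Ccr1 found in monocytes and macrophages, read 2.66 and 0.26 in OA mice and 3.89 in the serum mouse. The difference was −2.43 (SE 0.71), with an unadjusted p of 0.0026 (limma, adjusted p = 0.413), and without OA 4 h replicate 2 it was −1.24. The monocyte markers read 2.50 and 0.96 in the same OA mice and 3.54 in the serum mouse, with 12 of 12 below 0. Below 0 as well were 12 of 12 neutrophil (median −1.37), 9 of 9 B cell (−0.91) and 10 of 11 platelet markers (−0.60). So were 8 of 10 T cell (−0.53) and 7 of 8 natural killer cell markers (−0.26). Erythroid markers had 8 of 8 above 0 (1.55). The part of these markers in the Ccl9 value was not tested. Cxcl1, the other Cxcr2 ligand of the set, read −1.47 in 1 OA mouse and −5.33 in the serum mouse, where it was not well above background. The second OA spot was marked as an outlier and left out of the fit. The fitted difference of 3.86 (SE 1.57, limma, adjusted p = 0.452) is therefore a bound of at least 2.94-fold from 1 array each.

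At 18 h 2 members had an unadjusted p under 0.05, against 1.14% of all probes, and none passed the adjusted threshold. Groups were apart with OA higher in 1, Ccl2 (2.79% of all probes), and with OA lower in 1, Ccl5 (4.6%). Those with a low p were Ccl2, given above, and Cxcl2. Cxcl2 read −2.19, 0.27 and −0.17 in OA mice and −4.29 and −1.31 in serum mice, which overlap. On the array at −4.29, Cxcl2 was not well above background. Its difference was 2.11 (SE 0.99, limma, adjusted p = 1.00), and without serum 18 h replicate 1 it was 0.62.

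At 24 h, the latest time, 2 of the 10 chemokines passed the adjusted threshold on their main probe. Ccl9 was higher and Cxcl1 lower in OA mice than in serum mice. The background was high, since 28.2% of all probes passed there, 11.1% with OA higher and 17.1% with OA lower. Of the members 4 had an unadjusted p under 0.05 (44.5% of all probes), and groups were apart with OA higher in 4 (23.9%) and lower in 1 (31.4%). Their difference was above 0 in 7, with a median of 1.13 against −0.15 over all probes. That median was 0.56 without serum 24 h replicate 1 (8 above 0) and 0.10 with the intergenic signal as a covariate (6 above 0).

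Ccl9 read 3.72, 3.51 and 3.41 in OA mice at 24 h and 0.73 and 2.40 in serum mice. From 18 h to 24 h the OA mean of Ccl9 went from 3.32 to 3.55 and the serum mean from 3.11 to 1.57. The groups did not overlap at 24 h, and the lower serum value was that of replicate 1, the array of lowest correlation. The difference of 1.98 (SE 0.53, limma, adjusted p = 0.0200) was 1.14 (SE 0.61, limma, adjusted p = 0.542) without that array and 2.81 (SE 0.61, limma, adjusted p = 0.00278) without the other serum array. It was 1.89 (limma, adjusted p = 0.0648) without OA 24 h replicate 1. Of all probes 0.153% passed without serum 24 h replicate 1 and 48.3% without replicate 2. The 12 monocyte markers were also higher, and so were most B, T and natural killer cell markers. Above 0 were 9 of 9 B cell (median 1.06), 9 of 10 T cell (0.64) and 8 of 8 natural killer cell markers (0.67). Without serum 24 h replicate 1 these medians were 0.29, −0.08 and 0.07. Erythroid markers had 8 of 8 below 0 (−0.62). The part of these markers in the Ccl9 value was not tested. The monocyte markers averaged 3.10 to 3.35 in OA mice and 0.68 and 1.86 in serum mice. Of them 12 of 12 were above 0, and 6 passed the adjusted threshold, where 11.1% of all probes passed with OA higher. Their median difference was 1.72, against −0.15 over all probes. Without serum 24 h replicate 1, 0 of the 12 passed and 11 were above 0, with a median of 1.34.

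Cxcl1 read −5.78, −5.55 and −4.41 in OA mice at 24 h, none of them well above background, against −0.58 and −3.20 in serum mice, of which replicate 1 alone was well above background. Its fitted difference was −3.36 (SE 1.01, limma, adjusted p = 0.0260). With each OA array at its lowest well-above-background signal, Cxcl1 was 2.31-fold lower in OA mice. That is not a strict bound, because the serum mean takes in replicate 2, which was not well above background. Without serum 24 h replicate 1 no array of either group was well above background, so no fold remained (fitted difference −2.05). Without OA 24 h replicates 1 and 2 in turn the fitted difference was −3.09 (limma, adjusted p = 0.0764) and −3.20 (limma, adjusted p = 0.0582). In the authors' deposited values it was −0.71 (limma, adjusted p = 0.311). The Cxcl10 cDNA probe was also lower in OA mice, with a difference of −3.26 (SE 1.04, limma, adjusted p = 0.0303), or 2.04-fold by the same reckoning. It too was above background on 1 serum array alone, this time replicate 2, so that fold is not a strict bound either. No call remained without serum replicate 1 (−4.90, limma, adjusted p = 0.158), serum replicate 2 (−1.62, limma, adjusted p = 0.275, with no array of either group well above background), OA replicate 1 (−2.99, limma, adjusted p = 0.0838) or OA replicate 2 (−3.11, limma, adjusted p = 0.0677). The Cxcl10 RefSeq probe was well above background on 3 of 3 OA and 0 of 2 serum arrays at 24 h, but the bound fell short of any fold, so none is given (limma, adjusted p = 0.160).

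Ccl4, which draws monocytes and lymphocytes, read 0.60, 2.19 and 1.89 in OA mice at 24 h and 0.07 and 0.71 in serum mice, with a difference of 1.17 (SE 0.58, limma, adjusted p = 0.122). Ccl5, a Ccr1 and Ccr3 ligand abundant in T and natural killer cells, read 7.31, 8.51 and 8.29 in OA mice and 5.98 and 7.66 in serum mice. Its difference was 1.22 (SE 0.57, limma, adjusted p = 0.105), and 0.38 without serum 24 h replicate 1, while without replicate 2 it was 2.06 (limma, adjusted p = 0.0176). Both pairs of groups overlapped.

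Long intergenic RNA signal at 24 h was −4.58 to −4.13 in OA mice and −3.46 to −1.87 in serum mice. The lung and endothelial list averaged −2.89 to −2.31 in OA mice and 0.14 to 1.24 in serum mice. With the intergenic signal as a covariate the Ccl9 difference was 0.72 (limma, adjusted p = 0.987) and that of Cxcl1 −0.16 (limma, adjusted p = 0.997). Both serum arrays of 24 h lay on slide 1 and the OA arrays on slides 2, 3 and 5, so slide and treatment cannot be told apart within that time. Across the slides as a block, Ccl9 had 2.00 (limma, adjusted p = 0.136).

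**Figure D4:**
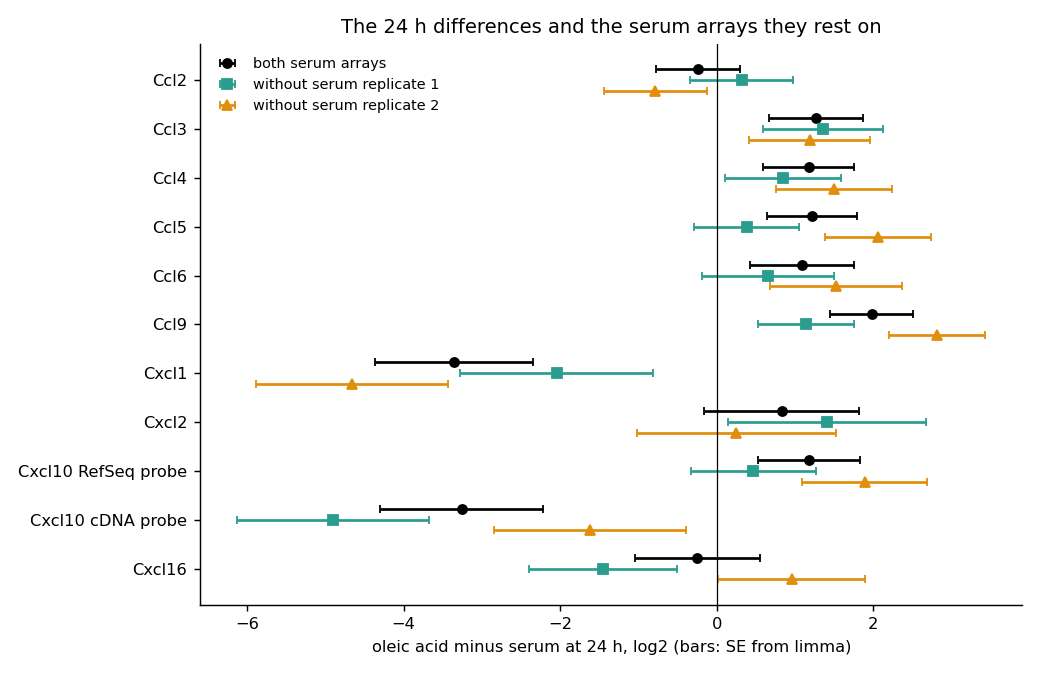
OA minus serum at 24 h (horizontal axis, log2, bars for limma's SE) for each chemokine probe with both serum arrays, without serum replicate 1 and without serum replicate 2. Ccl3, Ccl4, Ccl5, Ccl6, Ccl9, Cxcl2 and the Cxcl10 RefSeq probe stay above 0 in all 3, while Ccl2 and Cxcl16 change sign.

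Ccl6, a mouse ligand of Ccr1, had OA values above all serum values at 3 h (7.12, 6.70 and 6.74 in OA mice against 5.68 and 6.14 in serum mice). At 24 h they were barely apart (5.24, 6.64 and 5.79 in OA mice against 4.36 and 5.23 in serum mice). Its differences were 0.94 (SE 0.66) and 1.09 (SE 0.66), neither with an unadjusted p under 0.05. Cxcl16, which is anchored in the membrane and binds Cxcr6, was well above background on 17 arrays, and its differences ran from −0.25 at 24 h to 0.58 at 3 h over 5 of the times. At 4 h it was not well above background on either OA array, a bound of at least 1.21-fold lower. Ccl5 ran from 5.98 to 8.51 over the 30 arrays, the narrowest range of the members, and from 1 h to 18 h its differences ran from −0.58 to 0.18. No member passed the test that the OA effect differed between times. There 4 of the 10 had an unadjusted p under 0.05, against 16.8% of all probes, with Ccl9 the lowest (0.0027, limma, adjusted p = 0.194), and 0.00557% of all probes passed. Between the late (18 and 24 h) and early times 2 members differed with an unadjusted p under 0.05 (14.9% of all probes), Ccl9 by 1.31 (SE 0.47) and Cxcl1, not well above background in either group at 1 h and 18 h, by −2.23 (SE 0.91), neither past the adjusted threshold (0%).

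Over the mean of the 6 times 8 of the 10 members were above 0, with a median of 0.37 against −0.07 over all probes. None passed the adjusted threshold, and 2 had an unadjusted p under 0.05, against 13.8% of all probes. Under quantile scaling and in the authors' deposited values all 10 were above 0, so the sign of Cxcl1 and Cxcl16 depends on the scaling. At 24 h the median over all probes moved from −0.15 to 0.19 under quantile scaling and to −0.67 when arrays were scaled to probes detected throughout. The number of members above that median was 7, 9 and 7 under these settings.

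Members followed the marker lists to different degrees over the 30 arrays, which share groups and array quality, so these correlations are descriptions. Ccl9 had a Pearson r of 0.92 with the mean of the monocyte markers and −0.81 with the intergenic RNA signal. Ccl6 had 0.85 and Cxcl2 had 0.77 with the mean of the neutrophil markers. Without the 2 arrays farthest from the median of the marker list the values were 0.84 for Ccl9, 0.84 for Ccl6 and 0.71 for Cxcl2, over 28 arrays. For Ccl9 those left out were OA 4 h replicate 2 and serum 24 h replicate 1. Over all 30 arrays Ccl9 also had 0.70 with the B cell markers and 0.65 with the dendritic cell markers. Ccl5 had 0.78 with the natural killer cell markers, and Cxcl1 had 0.73 with the intergenic signal over 29 arrays. Ccl2 had 0.40 at most with any of the monocyte, neutrophil and platelet lists and −0.07 with the intergenic signal, and its strongest was −0.51 with the erythroid markers. Between members, Ccl3 and the Cxcl10 RefSeq probe (0.73), Ccl4 and Ccl6 (0.71) and Ccl6 and Cxcl2 (0.71) were the closest pairs. Ccl5 and Cxcl1 were the most opposed (−0.50 over 29 arrays).

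**Figure D5:**
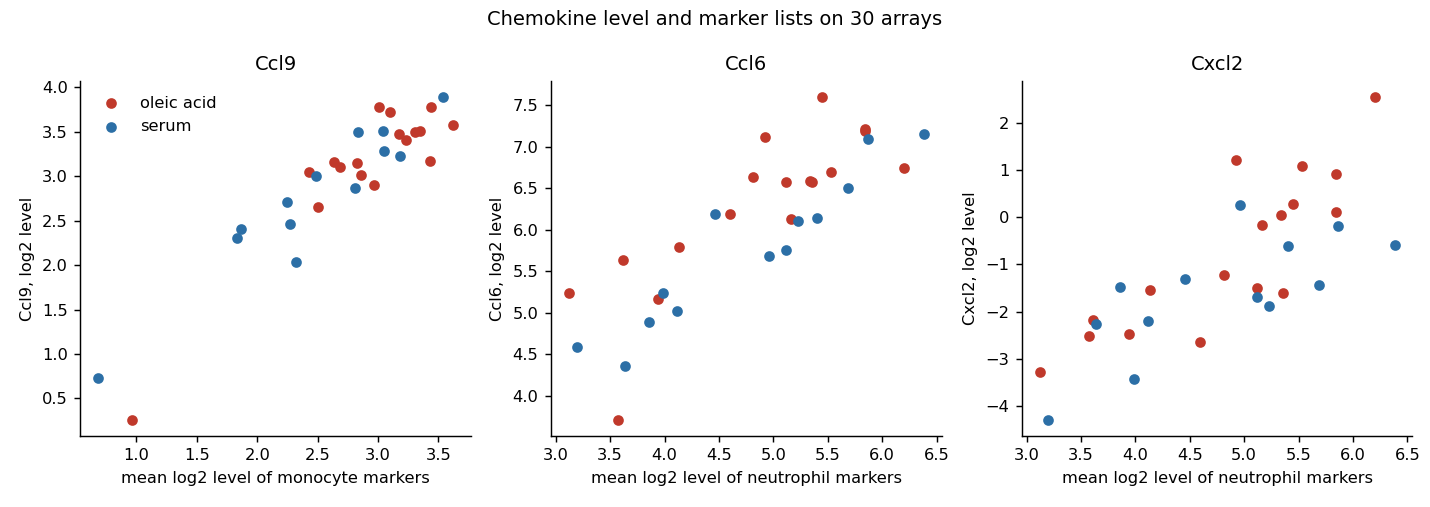
Level of Ccl9, Ccl6 and Cxcl2 (vertical axes, log2) against the mean log2 level of monocyte or neutrophil markers (horizontal axes), 1 point per array, OA and serum in different colours. Over the arrays of both treatments together, Pearson r is 0.92, 0.85 and 0.77 in that order.

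Among 15850 other named genes with a value on every array, the patterns closest to the members were as follows. Ccl6 was closest to Alox5 (r = 0.97), Pygl (0.93) and S100a11-ps (0.93), and Ccl9 to Naip2 (0.95), C3 (0.95) and Gusb (0.94). Ccl5 was closest to Klra4 (0.90), Tmem37 (0.89) and AW112010 (0.88), and Ccl3 to Trp53inp2 (0.86), Spty2d1 (0.84) and Hspa13 (0.84). Ccl4 had Rab8b (0.85), Cop1 (0.85) and Anxa2 (0.83), while Cxcl10 had Rspo1 (0.84), Ifi211 (0.82) and Klra2 (0.80). Cxcl2 had Plk3 (0.82), Ets2 (0.81) and Dusp1 (0.81), and Cxcl16 had Eif2a (0.76), Lrrc59 (0.75) and Pid1 (0.74). Cxcl1, dim on most arrays, had Olfr986 (0.89), Olfr1040 (0.89) and 9330162B11Rik (0.88) over 29 arrays. Ccl2 had no pattern closer than that of Pheta1 (0.67), Cilk1 (0.67) or Slc6a3 (0.66).

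Of the 7 receptors of the members 6 were measured, Ccr1 having no probe above background on 3 arrays. Before 24 h none of the 6 passed (limma), and none had an unadjusted p under 0.05 at any of those times. At 24 h Ccr2, the Ccl2 receptor of monocytes, was higher in OA mice than in serum mice by 2.11 (SE 0.53, limma, adjusted p = 0.0176). Cxcr3 stood at 0.95 (SE 0.41), Cxcr6 at 1.04 (SE 0.42), Cxcr2 at 0.09 (SE 0.84) and Ccr3 at −0.53 (SE 0.76), none of them past the threshold. The receptor calls at 24 h numbered 1 of 6, where 28.2% of all probes passed, and 0 of 6 without serum 24 h replicate 1, where 0.153% did.

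Genes around the members were counted by list over the mean of the 6 times, where 0.00279% of all probes passed and 13.8% had an unadjusted p under 0.05. The median over all probes was −0.07. None of the genes of the lists below passed. Of 18 NF-kB pathway and message decay genes 12 were above 0 (median 0.19, 3 with an unadjusted p under 0.05). Tnfaip3, which restrains NF-kB, stood at 0.80 (SE 0.22), and Zfp36, which destabilises cytokine messages, at 1.03 (SE 0.31), both with a limma adjusted p of 0.315. Of 14 interferon-stimulated genes 11 were above 0 (median 0.11, 1 under 0.05), with Irf1 at 0.47 (SE 0.21) and Gbp2 at 0.59 (SE 0.31).

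For the same mean, against 13.8% of all probes with an unadjusted p under 0.05, the other lists were as follows. Of 9 upstream cytokines 6 were measured and 4 were above 0 (median 0.19, 1 under 0.05). Il1b stood at 1.03 (SE 0.44) and Csf1 at 0.29 (SE 0.23). The 7 proteases that process chemokines had 4 above 0 (median 0.09, 1 under 0.05), with Adam10, which sheds Cxcl16, at 0.45 (SE 0.17) and Elane at −0.35 (SE 0.19). Of 25 other chemokine ligands 11 were measured and 3 were above 0 (median −0.22, 4 under 0.05). Ppbp, a platelet chemokine, stood at 0.78 (SE 0.30) and Ccl17 at −0.62 (SE 0.25). Of 16 other chemokine receptors 10 were measured and 8 were above 0 (median 0.31, 3 under 0.05), with Cxcr4 at 0.53 (SE 0.22) and Cx3cr1 at 0.67 (SE 0.29).

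At 24 h these lists held calls in both directions, as did all probes (28.2% passed, 11.1% with OA higher and 17.1% with OA lower), and the genes in them are named because they passed. NF-kB pathway genes had 5 higher (Rela, Tnfaip3, Myd88, Zfp36 and Zfp36l1) and 1 lower (Rel). Interferon-stimulated genes had 2 higher (Stat2 and Mx1), and other receptors had 2 higher (Cxcr5 and Cx3cr1). Other ligands had 1 higher (Xcl1) and 5 lower (Ccl1, Ccl24, Ccl25, Cxcl9 and Cx3cl1), upstream cytokines had 1 lower (Il6), and proteases had none. Without serum 24 h replicate 1 none of these genes passed (0.153% of all probes did).

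Over the mean of the 6 times the receptors of the members had 4 of 6 above 0 (median 0.05). Among the cell markers, 11 of 12 were above 0 for monocytes (median 0.29), 9 of 12 for neutrophils (0.08), 11 of 11 for platelets (0.49) and 8 of 9 for B cells (0.21). For T cells 2 of 10 were above 0 (−0.08), for natural killer cells 4 of 8 (−0.05), for erythroid cells 5 of 8 (0.04), for dendritic cells 3 of 5 (0.04) and for basophils 4 of 4 (0.26). None of these passed. The lung and endothelial list had 1 of 6 above 0 (−0.72), and from it Sftpc, a surfactant protein gene, was the sole probe of the array to pass, lower in OA mice (−2.11, SE 0.25, limma, adjusted p = 0.0013).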

How the data were processed

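The deposited scanner intensity values of 30 1-colour Agilent mouse arrays were used. Per the submitters' processing notes, they were read with Agilent Feature Extraction 10.5.1.1. Per the file headers, the processed signal is background-corrected within each array and not scaled between arrays. The authors' deposited table served as an alternative. Set against the scanner signals, the values the authors deposited there are log2, with correction and scaling not given in the sources used here.

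Groups came from the labels. The design text counts as many mice as arrays, and 1 array was counted as 1 mouse, so that p-values rest on the spread between these arrays.

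Of 62976 spots, 3671 controls and spots with an outlier mark (91 to 1408 per array) were left out. The log2 processed signal minus the array's 75th percentile was averaged over the spots of a probe. Probes well above background on 3 or more arrays entered the tests (35905 of 55681 probes). Names of kept probes came from the files and from RefSeq tables by accession (19529), symbol (2214) or older symbol (405), and 13757 kept the file's name. For each gene the kept probe of highest mean stood for it, and both probes of Cxcl10 were shown. Probe positions are the files' own, in mm9, and promoter sequences are RefSeq's, in GRCm38.p6.

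In R 4.3.3, limma 3.58.1 fitted 12 group means to the 30 arrays (18 residual degrees of freedom, 3.86 prior degrees of freedom, median residual SD 0.630), with two-sided tests and Benjamini-Hochberg adjustment over all tested probes at 0.05. The single serum array of 4 h borrows its spread from the remaining groups. The fit was run on simulated data with independent noise and known changes planted at 3 h, to check that it returned their size. These data held no slide effect and no deviant array, so they do not bear on the calls at 24 h. Where no array of a group had a probe well above background, the fold is a bound. It sets the mean of the brighter group against the dimmer group's mean, in which each array enters with its lowest well-above-background signal, or with the probe's signal if that is higher. Arrays of the brighter group enter with the probe's signal even where it is not well above background, and the bound is then not strict.

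The arrays came from 5 slides and 2 scan days. Slide 5 held 5 arrays, all from OA mice, and was the second scan day. Alternatives covered scaling, background correction, the authors' values, probe filters, slide, replicate numbers, the intergenic signal (8630 probes) and arrays left out. Named genes were all 10 members, the measured receptors (1 is not reported here), 2 genes per other pathway list by smallest p over the mean of the 6 times, and the 3 most alike genes per member. The members and the 17 gene lists were chosen with earlier results of these data known.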

Additional observations from a re-analysis of the deposited data

How the results depend on the processing

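Over 25 member differences and their 1027 alternatives, 22 values lost a call, 5 gained one and 32 changed sign. Many alternatives leave out an array of another time, which cannot move a difference of 1 time, so these counts do not measure stability. The cause was not tested. At 24 h the difference of Ccl9 stayed above 0 in all alternatives (0.72 to 2.81) but lost its call with slide as a fixed block, with the intergenic covariate, without the 3 arrays of lowest correlation, without serum 24 h replicate 1 and without OA 24 h replicate 1. Cxcl1 at 24 h ran from −4.66 to −0.16 and the Cxcl10 cDNA probe from −4.90 to −0.77. The early differences kept their sign but not their size. Ccl2 at 1.5 h ran from 0.86 to 1.88, Ccl3 at 1.5 h from 0.72 to 1.47 while the Cxcl10 RefSeq probe spanned 0.48 to 1.74 at 1.5 h. Its range for 3 h was 0.31 to 3.05. The lowest of each was that after normexp, whose offset of 50 shrinks dim values. Sign changes concerned Ccl5 at 24 h (−0.34 with the intergenic covariate) and the mean of the 6 times. There Ccl5 was −0.0316 with slide as a fixed block, −0.00243 with the replicate block and −0.24 with the covariate (−0.0464 to 0.23 without 1 array), and Ccl9 was −0.0440 with the covariate. Cxcl1 was 0.28 under quantile scaling, 0.22 in the authors' values, 0.000880 and 0.0125 with slide as a fixed and a random block, 0.89 with the covariate and 0.42 without the 3 arrays (−0.22 to 0.21 without 1 array). Cxcl16 was 0.0674 under quantile scaling and 0.0150 in the authors' values (−0.36 to 0.0368 without 1 array).

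For OA minus serum at 24 h the count of called probes was 10113, against 6537 in the authors' values, 21880 with no filter, 5027 with a filter of 15 arrays, 25 with slide as a fixed block, 2 with the covariate, 83 without the 3 arrays of lowest correlation and 55 to 17348 without 1 array (55 without serum replicate 1, 17348 without replicate 2 and 170 without OA replicate 1). Of the calls 39.4% had OA higher, against 58.7% under quantile scaling, 17.3% when scaled to always-detected probes, 54.5% in the authors' values, 19.2% with no filter and 77.4% with a filter of 15 arrays. At 4 h the count of 0 became 8 (quantile), 24 (authors' values) and 2 (covariate), and 0 to 7 without 1 array. Without 1 array it was 0 to 1 at 1.5 h and 3 h and 0 to 3 at 18 h. For the mean of the times the count of 1 became 2 (normexp), 9 (authors' values), 2 (no filter), 0 (15 arrays) and 0 to 8 without 1 array. For late minus early 0 became 6 (quantile), 8 (authors' values) and 0 to 1119. For the OA effect by time 2 became 26 (quantile), 0 (always-detected, normexp and 15 arrays), 29 (authors' values), 1 (covariate, and without the 3 arrays) and 0 to 1522. Over the OA times 71 became 243 (quantile), 147 (always-detected), 45 (normexp), 418 (authors' values), 18 (no filter), 43 (1 probe per gene), 0 (slide), 33 (without the 3 arrays) and 8 to 190. Over the serum times 21 became 188 (quantile), 72 (always-detected), 5 (normexp), 207 (authors' values), 10 (no filter), 40 (15 arrays), 5 (slide), 74 (covariate), 13 (without the 3 arrays) and 1 to 759.

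In the main fit the replicate numbers served to name arrays only. OA and serum arrays of the same number and time had deviations correlated from −0.52 to 0.40 in 12 pairs, over 0.1 in 4, and 5 were closest to their own number. With so few arrays per group, these values cannot settle whether the numbers carry a pairing. With the replicate block 7115 probes passed at 24 h, 2 for the mean of the times, 15 over the OA times and 13 over the serum times. The dim probes (Cxcl1, above background on 8 arrays, and the Cxcl10 cDNA probe, on 3) limit what can be said of them to bounds, which at 24 h are not strict. Without serum 4 h replicate 1 no 4 h difference could be fitted, nor that of Cxcl1 without OA 4 h replicate 1.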
